A study of Homo sapiens with 20 samples.

Results

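The genes described here are the 34 that carry glucose from its uptake to pyruvate, export lactate, and bring pyruvate into the mitochondrion and onto pyruvate dehydrogenase. They were taken from a list of symbols, each of which was found as 1 row of a deposited table of 60656 rows and 59609 distinct symbols. The 20 RNA samples are of SW1990, a line of human pancreatic cancer cells in long use, and the series title speaks of a mouse model. The samples fall into 4 treatments named after principles of traditional Chinese medicine, with 5 samples each. The blood-activating treatment is also labelled as removing stasis, the heat-clearing treatment as removing dampness, the yin-nourishing treatment as eliminating heat, and the spleen-strengthening treatment as regulating the flow of qi. The herbs, doses and durations, and the way the tumour cells were placed in the mice, are not in the labels. No sample is labelled untreated, so every value compares treatments with one another. Whether replicates are separate mice, tumours or cultures is not stated, and each p-value therefore measures only the spread between these samples, which may be technical.

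Glucose enters the cell through the facilitative carriers of the SLC2A family and is trapped by hexokinase. Phosphofructokinase then commits it to glycolysis, under the control of fructose 2,6-bisphosphate that the PFKFB enzymes make and remove, and aldolase through pyruvate kinase turn it into pyruvate. Pyruvate is either reduced to lactate by lactate dehydrogenase and exported by the SLC16A carriers, or taken into the mitochondrion by the carrier MPC1 and MPC2 and oxidised by the pyruvate dehydrogenase complex, which the PDK kinases switch off. Pancreatic cancer cells are known for high glycolysis, and hypoxia-inducible factors, which act in poorly perfused tumours, are known to raise many of these genes.

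The samples held 81685860 to 134963074 counts each. Markers of human tumour epithelium were present in all samples, with the 8 listed genes (EPCAM, KRT7, KRT8, KRT18, KRT19, CDH1, CLDN4 and MUC1) summing to 1962 to 3196 CPM (counts scaled to library size after normalisation by the trimmed mean of M-values, TMM). A set of 5 libraries stood apart by RN7SK, a small nuclear RNA, which took 5.25 to 7.38% of their counts against 1.57 to 3.02% in the other 15. They were blood-activating replicates 1, 8 and 9 and heat-clearing replicates 1 and 2, and none belonged to the other treatments. The share of mRNA from the mitochondrial genome was 10.6 to 15.6% in these 5 libraries and 17.1 to 23.2% in the other 15. Fold changes and ratios of the members at an unadjusted p under 0.05 are therefore also given without them, which leaves 2 blood-activating and 3 heat-clearing samples. Sample titles also carry a letter, b or C, whose meaning the labels do not give. All RN7SK-high blood-activating samples carry b and the 2 others carry C. Letter and RN7SK level therefore cannot be told apart in that group. In the heat-clearing group they do not coincide. Of its RN7SK-high samples, replicate 1 carries b and replicate 2 carries C. Of its others, replicate 3 carries b and replicates 7 and 9 carry C. In the yin-nourishing and spleen-strengthening groups only yin-nourishing 5 and spleen-strengthening 7 carry C.

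Upstream sequences are shown for members on which the results turn: PFKFB3, which had the smallest p among the treatments, HK2, the main hexokinase here, SLC16A3, the more variable of the lactate exporters, and the lactate dehydrogenase genes LDHA and LDHB, which differed most in level. They come from RefSeq promoters on GRCh38.p14, in which 31 of the 34 members were found (SLC2A3, PFKFB2 and SLC16A1 were not). Each is the longest stretch of the 250 bases before an annotated start that overlaps no exon of GENCODE release 29. Capitals mark ACGTG, the core of the element bound by hypoxia-inducible factors, or its reverse complement CACGT. Both strands were searched, and in CACGTG, which is also the E-box bound by MYC and related factors, the matches to each strand overlap. The HK2 stretch lies at chr2:74834920-74835169 and the PFKFB3 stretches at chr10:6144671-6144920 and chr10:6202694-6202865, all on the plus strand. That of SLC16A3 lies at chr17:82228792-82229031 and that of LDHA at chr11:18394313-18394387 on the plus strand, and that of LDHB at chr12:21657972-21658092 on the minus strand.
HK2: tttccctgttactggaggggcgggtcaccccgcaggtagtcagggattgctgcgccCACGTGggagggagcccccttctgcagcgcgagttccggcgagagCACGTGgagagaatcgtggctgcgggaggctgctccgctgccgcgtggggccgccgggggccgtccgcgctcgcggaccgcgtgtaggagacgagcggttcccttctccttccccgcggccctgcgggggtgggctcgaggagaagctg
PFKFB3 upstream start: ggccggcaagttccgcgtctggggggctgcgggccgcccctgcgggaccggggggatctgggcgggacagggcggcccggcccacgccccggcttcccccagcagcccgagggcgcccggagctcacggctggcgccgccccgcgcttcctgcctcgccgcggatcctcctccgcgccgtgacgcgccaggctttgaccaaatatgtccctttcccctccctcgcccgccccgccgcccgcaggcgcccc
PFKFB3 downstream start: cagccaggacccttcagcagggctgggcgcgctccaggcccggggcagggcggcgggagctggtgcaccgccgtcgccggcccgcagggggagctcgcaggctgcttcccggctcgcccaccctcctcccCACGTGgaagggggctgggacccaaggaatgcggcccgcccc
SLC16A3: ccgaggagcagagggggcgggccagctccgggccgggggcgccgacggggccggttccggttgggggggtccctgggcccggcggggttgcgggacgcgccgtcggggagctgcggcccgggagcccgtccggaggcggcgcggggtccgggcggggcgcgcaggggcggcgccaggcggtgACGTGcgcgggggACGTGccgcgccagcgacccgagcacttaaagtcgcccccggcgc
LDHA: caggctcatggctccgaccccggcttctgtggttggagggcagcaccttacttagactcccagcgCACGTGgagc
LDHB: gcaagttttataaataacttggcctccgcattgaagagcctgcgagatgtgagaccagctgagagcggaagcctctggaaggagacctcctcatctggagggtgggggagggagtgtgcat
The HK2 stretch held 4 matches, as a pair of CACGTG palindromes, and the downstream PFKFB3 stretch held 1 such palindrome, while the upstream PFKFB3 stretch held no match. The printed stretches of SLC16A3 and LDHA held 2 separate matches and 1 palindrome, and that of LDHB none. For SLC16A3 and LDHA the stretch with matches was chosen for printing, and their exon-free stretches at other annotated starts, of 212 and 250 bases for SLC16A3 and of 165 bases for LDHA, held 0 matches. Over whole windows of 250 bases, 22 of the 64 windows of the members (34.4%) held at least 1 match, against 18.5% of all 35116 windows. By gene, 19 of the 31 members had such a window, against 5935 of all 27305 genes. The members had more windows per gene than all genes did, and windows of 1 gene can overlap, so neither comparison is on a like basis. The members' windows had a median GC content of 67.8%, against 58% for all windows. A match is a stretch of letters only, and no binding was measured.

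Per kilobase of exon, GAPDH was by far the most abundant member in every group. The enzyme, which oxidises glyceraldehyde 3-phosphate, averaged 1912 CPM per kb over the 20 samples, ahead of triose phosphate isomerase TPI1 with 236 CPM per kb, aldolase ALDOA with 201 CPM per kb and pyruvate kinase PKM with 157 CPM per kb. ENO1, PGK1, PGAM1, LDHA and SLC2A1 followed in that order, with 68.7, 64.7, 61.8, 61.0 and 60.1 CPM per kb, levels that lay within the spread between samples of one another. The genes of the phosphofructokinase and PFKFB steps and of pyruvate entry were lower, at 2.24 CPM per kb for PFKM to 20.1 CPM per kb for PFKP and 19.5 CPM per kb for DLAT. The muscle enolase ENO3 and LDHB were lowest, with 0.135 and 0.0606 CPM per kb.

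**Figure D1:**
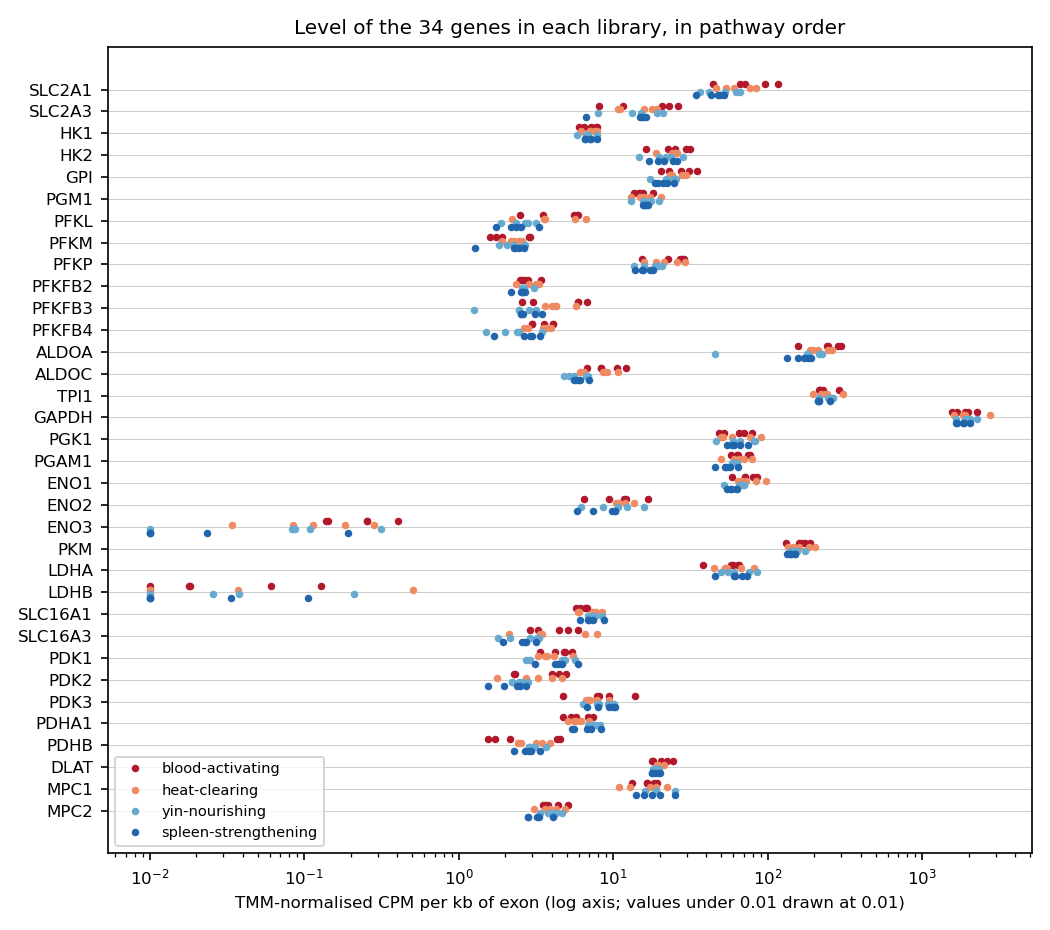
Level of each of the 34 genes, from glucose uptake at the top to the mitochondrial pyruvate carrier at the bottom, as TMM-normalised CPM per kb of exon on a log axis, with 1 point per library and 4 colours for the treatments. GAPDH stands to the right of all other members, ENO3 and LDHB stand to the left, and the treatments overlap for nearly every gene.

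Within each family 1 isoform usually dominated, in shares of CPM per kb. LDHA made up 98.9 to 100% of LDHA and LDHB, ALDOA 89.1 to 97.8% of the aldolases, ENO1 80.4 to 91.8% of the enolases, PFKP 74.2 to 81.7% of the phosphofructokinases, SLC2A1 73.4 to 89.1% of the glucose carriers and HK2 68.04 to 84.00% of the hexokinases. The 3 PFKFB genes were more even, with median shares of 31.1% for PFKFB2, 36.8% for PFKFB3 and 31.8% for PFKFB4. Among the PDK kinases PDK3 had the highest median share, 52.4%. The samples of all treatments shared the same leading isoform in these dominated families, and the exceptions were the PFKFB, SLC16A and PDK families, in which the shares ranged widely between samples.

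The central comparison asked whether the treatments differ in this pathway. No member passed an adjusted p of 0.05 in the test for any difference among the 4 treatments (edgeR quasi-likelihood test, over all 24790 rows tested, of which 0% passed). All 34 members passed the filter on low counts. In all, 9 of the 34 (26.5%) had an unadjusted p under 0.05, against 15.4% of all rows, and the smallest adjusted p was 0.172, for PFKFB3 and ALDOC. Those 9 were PFKFB3, ALDOC, PFKL, PFKP, SLC2A1, SLC16A3, ENO1, PDK2 and PFKFB4. By group mean, the spleen-strengthening treatment was lowest of the 4 for 23 of the 34 members and highest for 1, while the blood-activating treatment was highest for 16. The 23 include ENO3 and LDHB, whose levels were near the floor, and the blood-activating and heat-clearing means include the RN7SK-high libraries. The same ranking was not computed over all rows, so these counts cannot be read as particular to the members. Since RNA was taken in bulk, fewer cells and less RNA per cell cannot be told apart.

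None of the members passed an adjusted p of 0.05 in any of the 6 pairs of treatments with edgeR, and the pairs share samples with one another. Of all rows, 0% passed in each pair except heat-clearing against spleen-strengthening, where 0.00807% (2 rows) did. Between the blood-activating and the spleen-strengthening treatment, 27 members were higher and 7 lower, with a median log2 difference of 0.26 against 0.04 for all rows. Of these, 10 members were higher at an unadjusted p under 0.05 (12.2% of all rows were) and 0 lower (8.28% of all rows). The heat-clearing against the spleen-strengthening treatment gave 28 higher and 6 lower, a median of 0.23 against 0.02, and 10 higher (8.44% of all rows) and 0 lower (3.03%) at that threshold. Yin-nourishing against spleen-strengthening samples also gave 28 higher and 6 lower, but with a median of 0.10 against -0.00 for all rows and 0 members past an unadjusted p of 0.05 either way (2.05% of rows higher, 2.66% lower). The share of all rows that were higher was 52.9, 51.8 and 49.6% in these pairs, in that order.

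The other pairs had medians closer to those of all rows. Blood-activating against yin-nourishing samples gave 23 members higher and 11 lower, a median of 0.11 against 0.09 for all rows, with 8 higher (10.5% of rows) and 1 lower (7.74% of rows) at an unadjusted p under 0.05. Heat-clearing against yin-nourishing samples gave 22 higher and 12 lower, a median of 0.10 against 0.05, with 5 higher (7.07% of rows) and 1 lower (3.2% of rows). Blood-activating against heat-clearing samples gave 19 higher and 15 lower, a median of 0.04 against 0.01, and 0 members past an unadjusted p of 0.05 in either direction (1.06% of rows higher, 0.795% lower). The share of all rows that were higher was 56.4, 54.4 and 51.5% in these pairs, in that order. No test was made over the list.

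Few members separated any pair of treatments without overlap of their samples. Blood-activating against yin-nourishing samples had 0 members wholly higher (1.86% of all rows) and 1 wholly lower, SLC16A1 (2.26%). Heat-clearing samples were wholly higher for 1 member, PFKFB3, against yin-nourishing samples (0.738% of rows; 0 lower, against 0.424%) and for 3 members, PFKFB3, ENO1 and ENO2, against spleen-strengthening samples (0.799% of rows; 0 lower, against 0.46%). The other pairs had 0 members in either direction. Of all rows, 2.49% were wholly higher and 1.94% wholly lower in blood-activating against spleen-strengthening samples, 0.307% and 0.182% in blood-activating against heat-clearing samples, and 0.351% and 0.42% in yin-nourishing against spleen-strengthening samples.

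**Figure D2:**
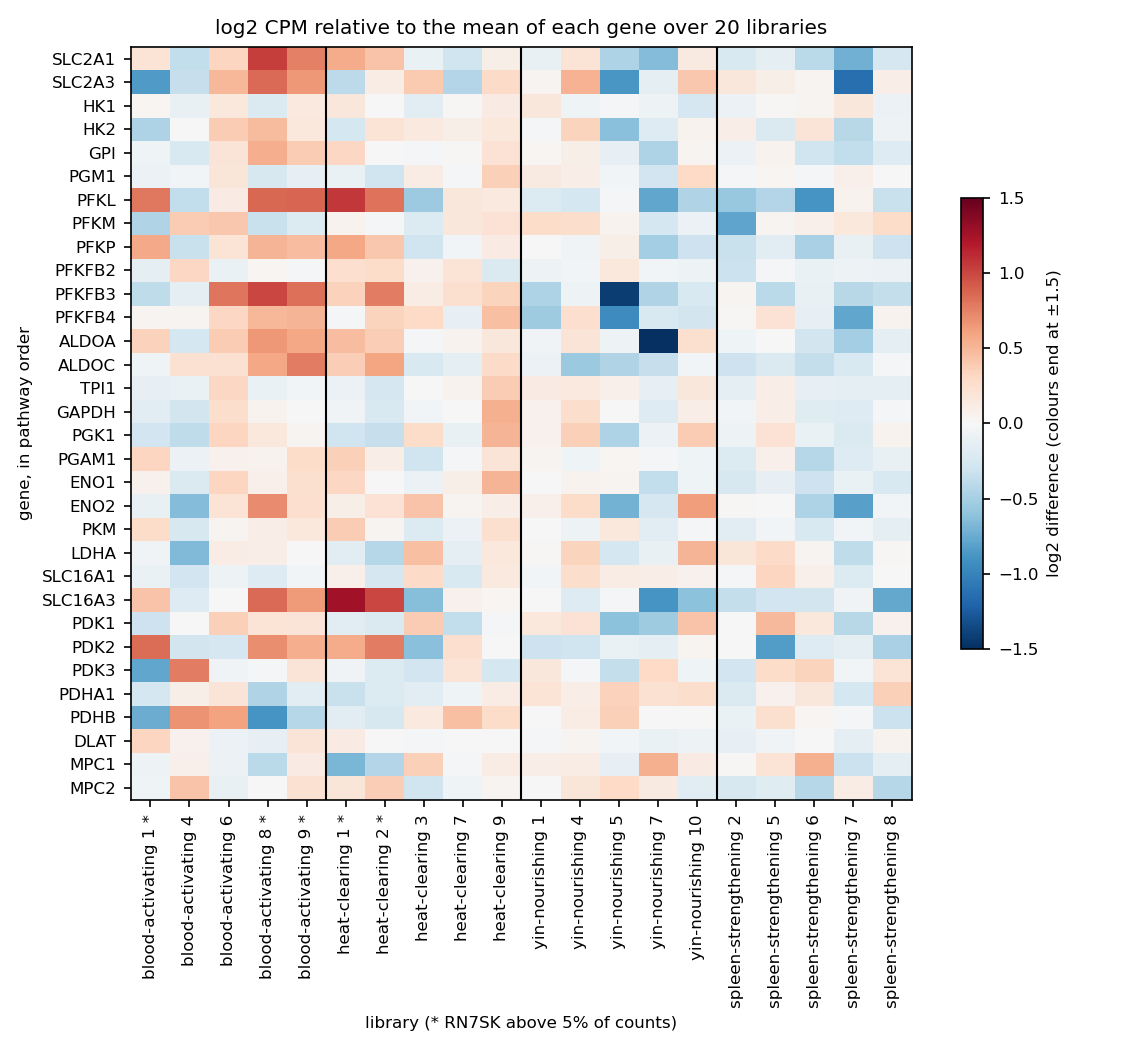
log2 CPM of each member in each library relative to the gene's mean over the 20 libraries, for the 32 members without ENO3 and LDHB, with genes in pathway order down the page and libraries by treatment across it. The 5 RN7SK-high libraries, marked by asterisks, are high for PFKL, PFKP, SLC16A3 and PDK2, and the single darkest blue field is ALDOA in yin-nourishing 7.

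At the entry of glucose, the carrier SLC2A1 (GLUT1, chr1:42925375-42959176, minus strand, positions on hg38 from GENCODE release 29) had its highest mean in blood-activating samples. SLC2A1 stood, in order of replicate number, at 312, 209, 338, 555 and 455 CPM in the blood-activating samples, at 396, 363, 252, 220.1 and 287 CPM in the heat-clearing samples, at 249.01, 310.5, 196, 173 and 296 CPM in the yin-nourishing samples and at 231, 246, 204, 163 and 227 CPM in the spleen-strengthening samples. In 4 of the 5 blood-activating samples it lay above every spleen-strengthening sample, the exception being replicate 4, and so the groups overlapped. The log2 fold change of SLC2A1 was 0.80 (SE 0.22, edgeR adjusted p = 0.0933) for blood-activating over spleen-strengthening, and 0.61 (SE 0.22, edgeR adjusted p = 0.161) for blood-activating over yin-nourishing. For heat-clearing over spleen-strengthening it was 0.51 (SE 0.22, edgeR adjusted p = 0.384). None passed the adjusted threshold, and without the RN7SK-high libraries the same values were 0.34, 0.16 and 0.24. SLC2A3 (GLUT3), a carrier of higher affinity, averaged 110.2 ± 47.8 CPM in blood-activating, 91.9 ± 23.5 CPM in heat-clearing, 94.2 ± 31.7 CPM in yin-nourishing and 85.1 ± 24.8 CPM in spleen-strengthening samples (SD, n = 5 each), with no pair at an unadjusted p under 0.05.

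HK2, the inducible hexokinase that tumours often use (chr2:74833981-74893359, plus strand), had groups of similar level. HK2 stood at 99.5, 138, 178, 191 and 154 CPM in the blood-activating samples, at 114, 157, 152, 146 and 152 CPM in the heat-clearing samples, at 134, 172, 88.9, 119.5 and 143 CPM in the yin-nourishing samples and at 147, 118, 157, 103 and 129 CPM in the spleen-strengthening samples. All groups overlapped, and its log2 fold change of blood-activating over spleen-strengthening was 0.22 (95% interval -0.11 to 0.55). The housekeeping hexokinase HK1 had the smallest ratio of highest to lowest sample of all members, 1.34, and averaged 44.3 ± 4.95 CPM in blood-activating, 45.1 ± 4.07 CPM in heat-clearing, 42.8 ± 4.56 CPM in yin-nourishing and 44.5 ± 3.42 CPM in spleen-strengthening samples (SD, n = 5 each). For the same pair its log2 fold change was -0.01 (95% interval -0.21 to 0.20). GPI, which turns glucose 6-phosphate into fructose 6-phosphate, averaged 291 ± 62.8 CPM in blood-activating, 275 ± 29.9 CPM in heat-clearing, 243 ± 34.8 CPM in yin-nourishing and 227 ± 26.4 CPM in spleen-strengthening samples (SD, n = 5 each). Its log2 fold change was 0.36 (SE 0.14, edgeR adjusted p = 0.136) for blood-activating over spleen-strengthening, and 0.16 without the RN7SK-high libraries. PGM1, which links glycolysis with glycogen, averaged 64.8 ± 7.24 CPM in blood-activating, 68.6 ± 11.7 CPM in heat-clearing, 69.99 ± 10.3 CPM in yin-nourishing and 67.8 ± 2.08 CPM in spleen-strengthening samples (SD, n = 5 each), with no pair at an unadjusted p under 0.05.

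At phosphofructokinase, the committing step, the liver-type subunit PFKL and the platelet-type subunit PFKP had higher means in the blood-activating and heat-clearing groups and the muscle-type PFKM did not, with none past the adjusted threshold. PFKP, the most abundant subunit (chr10:3066333-3137712, plus strand), stood at 139.5, 74.5, 109, 135 and 130.1 CPM in the blood-activating samples, at 141, 124, 76.3, 91.3 and 103 CPM in the heat-clearing samples, at 94.3, 90.7, 100.5, 66.1 and 76.1 CPM in the yin-nourishing samples and at 74.6, 84.2, 67.4, 87.6 and 75.9 CPM in the spleen-strengthening samples. Of the 5 samples, 4 in both the blood-activating and the heat-clearing group lay above all spleen-strengthening samples, and the remaining sample of each group fell among them. PFKP had log2 fold changes of 0.59 (SE 0.17, edgeR adjusted p = 0.0933) for blood-activating over spleen-strengthening, 0.46 (SE 0.17, edgeR adjusted p = 0.165) for blood-activating over yin-nourishing and 0.46 (SE 0.17, edgeR adjusted p = 0.326) for heat-clearing over spleen-strengthening. Leaving out the RN7SK-high libraries gave 0.23, 0.10 and 0.21.

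PFKL (chr21:44300051-44327376, plus strand) stood at 49.7, 22.2, 31.1, 52.05 and 52.5 CPM in the blood-activating samples, at 59.8, 50.4, 19.6, 32.2 and 31.7 CPM in the heat-clearing samples, at 24.9, 23.95, 28.4, 16.8 and 20.9 CPM in the yin-nourishing samples and at 19.4, 21.1, 15.5, 29.8 and 22.7 CPM in the spleen-strengthening samples. The RN7SK-high libraries formed the top of both groups, at 49.7 CPM or more, and 4 of 5 samples of each group lay above all yin-nourishing and all spleen-strengthening samples. PFKL had log2 fold changes of 0.94 (SE 0.27, edgeR adjusted p = 0.0933) for blood-activating over spleen-strengthening and 0.85 (SE 0.27, edgeR adjusted p = 0.142) for blood-activating over yin-nourishing. It was 0.84 (SE 0.27, edgeR adjusted p = 0.323) for heat-clearing over spleen-strengthening and 0.75 (SE 0.27, edgeR adjusted p = 0.456) for heat-clearing over yin-nourishing. Without the RN7SK-high libraries the 4 values were 0.29, 0.21, 0.36 and 0.28. PFKM averaged 16.1 ± 4.61 CPM in blood-activating, 16.7 ± 1.89 CPM in heat-clearing, 16.8 ± 2.64 CPM in yin-nourishing and 16.05 ± 3.91 CPM in spleen-strengthening samples (SD, n = 5 each), nearly the same in each group, and shares 628 exon bases with SENP1 on the opposite strand.

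The PFKFB enzymes set the level of fructose 2,6-bisphosphate, the strongest activator of phosphofructokinase, and PFKFB3, whose kinase activity far outweighs its phosphatase, had the smallest p of all members. PFKFB3 (chr10:6144934-6254644, plus strand) stood at 15.8, 18.6, 35.9, 41.3 and 36.4 CPM in the blood-activating samples, at 26.2, 35.1, 22.2, 24.4 and 25.97 CPM in the heat-clearing samples, at 14.9, 19.5, 7.65, 15.02 and 17.6 CPM in the yin-nourishing samples and at 21.2, 15.5, 19.02, 15.5 and 16.1 CPM in the spleen-strengthening samples. Every heat-clearing sample lay above every yin-nourishing and every spleen-strengthening sample. Among blood-activating samples, replicates 6, 8 and 9 were at 35.9 CPM or more and replicates 1 and 4 fell among the other treatments. PFKFB3 had log2 fold changes of 0.99 (SE 0.25, edgeR adjusted p = 0.141) for blood-activating over yin-nourishing and 0.84 (SE 0.24, edgeR adjusted p = 0.456) for heat-clearing over yin-nourishing. Against spleen-strengthening it was 0.76 (SE 0.24, edgeR adjusted p = 0.0990) for blood-activating and 0.62 (SE 0.24, edgeR adjusted p = 0.346) for heat-clearing. Without the RN7SK-high libraries these 4 were 0.87, 0.70, 0.63 and 0.47.

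PFKFB4, known as a hypoxia-induced isoform, averaged 21.6 ± 3.42 CPM in blood-activating, 20.3 ± 3.43 CPM in heat-clearing, 14.4 ± 4.38 CPM in yin-nourishing and 16.6 ± 3.87 CPM in spleen-strengthening samples (SD, n = 5 each). Its log2 fold change over yin-nourishing was 0.59 (SE 0.20, edgeR adjusted p = 0.146) for blood-activating and 0.49 (SE 0.20, edgeR adjusted p = 0.460) for heat-clearing samples, and 0.47 and 0.52 without the RN7SK-high libraries. PFKFB2, the isoform known from heart, had the highest mean CPM of the 3 (chr1:207034366-207081024, plus strand), though per kilobase it was the lowest. PFKFB2 stood at 25.3, 34.7, 26.02, 28.5 and 27.5 CPM in the blood-activating samples, at 33.3, 33.8, 29.1, 32.2 and 23.9 CPM in the heat-clearing samples, at 26.4, 27.2, 31.1, 27.2 and 26.5 CPM in the yin-nourishing samples and at 22.4, 27.5, 25.9, 26.5 and 26.2 CPM in the spleen-strengthening samples. All groups overlapped, and the log2 fold change for heat-clearing over spleen-strengthening was 0.24 (SE 0.12, edgeR adjusted p = 0.433), against 0.14 without the RN7SK-high libraries. PFKFB3 and PFKFB4 were both lowest of their group in yin-nourishing 5, at 7.65 and 9.14 CPM, and in spleen-strengthening 7. SLC2A3, HK2, PGK1, ENO2, LDHA, PDK1 and MPC1 were the lowest of their groups in the same 2 samples. These 2 samples carry the letter C in their titles, and all others of their treatments carry b. The other treatments were mixed. In blood-activating samples, SLC2A3, HK2, PFKFB3, PFKFB4, PDK1 and MPC1 were lowest in samples with b. There, PGK1, ENO2 and LDHA were lowest in a sample with C. In heat-clearing samples, HK2, PFKFB3 and MPC1 were lowest in samples with b, and the other genes named here in samples with C. What the letters stand for is not stated, and their part in these values was not tested.

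Aldolase splits fructose 1,6-bisphosphate. ALDOC, known as the brain isoform and a known hypoxia target (chr17:28573115-28577264, minus strand), had the second smallest p. ALDOC stood at 19.9, 24.3, 24.3, 30.997 and 35.3 CPM in the blood-activating samples, at 26.9, 31.3, 17.7, 18.9 and 25.3 CPM in the heat-clearing samples, at 19.6, 14.1, 15.1, 16.4 and 20.1 CPM in the yin-nourishing samples and at 16.7, 17.9, 16.2, 17.7 and 20.5 CPM in the spleen-strengthening samples. Of the samples, 4 of 5 blood-activating samples and 3 of 5 heat-clearing samples lay above every yin-nourishing and every spleen-strengthening sample. Its log2 fold change was 0.66 (SE 0.17, edgeR adjusted p = 0.141) for blood-activating over yin-nourishing and 0.60 (SE 0.17, edgeR adjusted p = 0.0933) over spleen-strengthening. For heat-clearing samples it was 0.49 (SE 0.17, edgeR adjusted p = 0.456) over yin-nourishing and 0.43 (SE 0.17, edgeR adjusted p = 0.342) over spleen-strengthening. The values for blood-activating samples without the RN7SK-high libraries were 0.51 and 0.44, and for heat-clearing samples 0.28 and 0.21.

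ALDOA, the main aldolase (chr16:30064164-30070457, plus strand), stood at 948, 618, 966, 1168 and 1110.0 CPM in the blood-activating samples, at 1024, 962, 735, 774 and 834 CPM in the heat-clearing samples, at 719, 847, 704, 179.5 and 879 CPM in the yin-nourishing samples and at 713, 742, 616, 522 and 671 CPM in the spleen-strengthening samples. The value of yin-nourishing 7 was far below all others. In that sample 15900 counts were given to ALDOA and 43330 to AC093512.2, a gene on the same strand that shares 1657 exon bases with it, whereas ALDOA held 89.0 to 97.2% of the sum of the pair in the other 19 samples. Reads of such a pair cannot be told apart by these counts, so the sum was taken as well, a choice made after seeing the value. Summed, the pair stood at 669 CPM in yin-nourishing 7 and averaged 1027 ± 221 CPM in blood-activating, 920 ± 118 CPM in heat-clearing, 823 ± 113 CPM in yin-nourishing and 711 ± 94.4 CPM in spleen-strengthening samples (SD, n = 5 each). The summed log2 fold change of blood-activating over spleen-strengthening was 0.53 (SE 0.15, edgeR adjusted p = 0.0932), against 0.56 (SE 0.27, edgeR adjusted p = 0.252) for ALDOA alone. For heat-clearing over spleen-strengthening the sum gave 0.37 (SE 0.15, edgeR adjusted p = 0.343). Without the RN7SK-high libraries, an alternative also added after seeing the data, the summed values were 0.26 and 0.25. TPI1, which interconverts the triose phosphates, averaged 632 ± 84.6 CPM in blood-activating, 648 ± 109 CPM in heat-clearing, 671 ± 51.9 CPM in yin-nourishing and 597 ± 47.1 CPM in spleen-strengthening samples (SD, n = 5 each) and differed in no pair at an unadjusted p under 0.05.

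**Figure D3:**
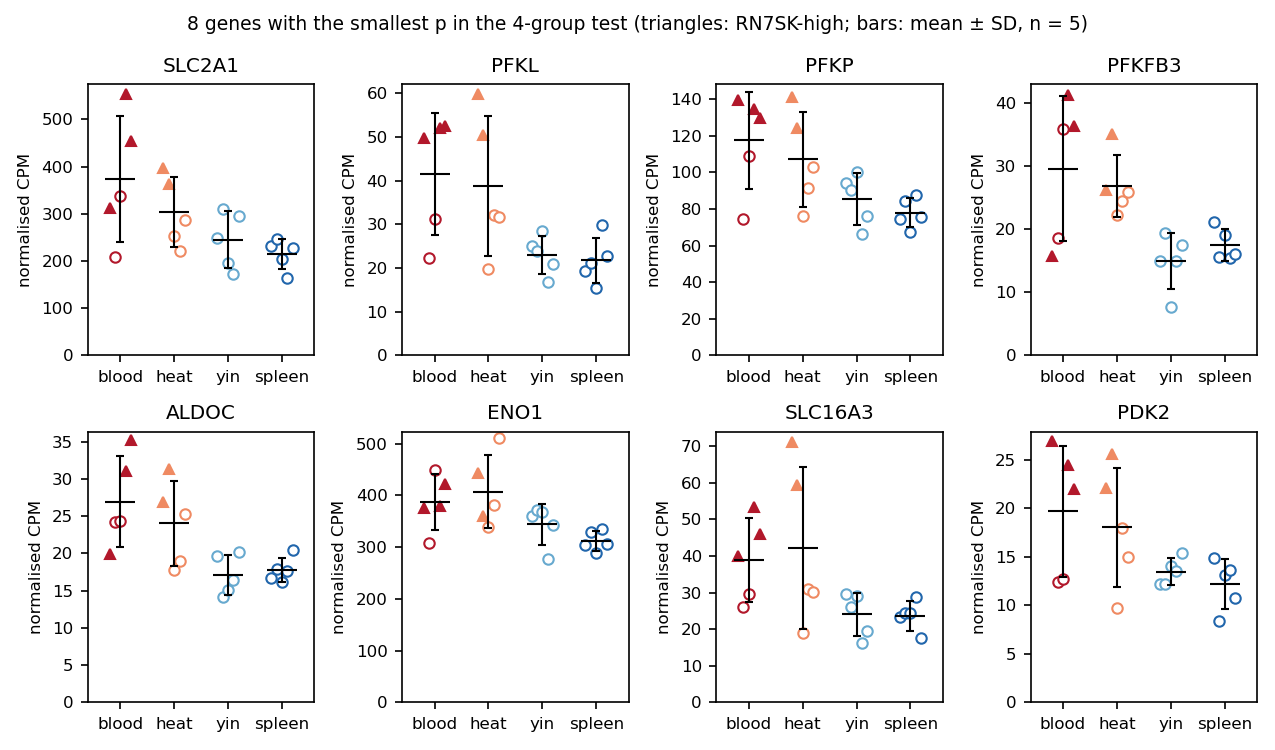
Normalised CPM in every sample, by treatment, of the 8 members with the smallest p in the 4-group edgeR test, with triangles for the RN7SK-high libraries, circles for the others, and bars for the mean and SD of 5 samples. PFKFB3 in the heat-clearing group lies wholly above the yin-nourishing and spleen-strengthening groups, and the high values of PFKL and PDK2 are triangles.

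Lower glycolysis held GAPDH, the most abundant member, and PKM, and neither had a pair at an unadjusted p under 0.05. GAPDH (chr12:6533927-6538374, plus strand) stood at 5037, 4658, 6778, 5881 and 5653 CPM in the blood-activating samples, at 5467, 4803, 5491, 5681 and 8184 CPM in the heat-clearing samples, at 5907, 6789, 5609, 4951 and 6065 CPM in the yin-nourishing samples and at 5507, 6050.1, 4987, 4947 and 5562 CPM in the spleen-strengthening samples. Heat-clearing 9 was the highest sample, and the groups overlapped throughout. Its log2 fold change was 0.05 (95% interval -0.22 to 0.32) for blood-activating over spleen-strengthening and 0.13 (95% interval -0.14 to 0.40) for heat-clearing over spleen-strengthening. PKM, the last step to pyruvate (chr15:72199029-72231822, minus strand), stood at 1613, 1129.8, 1369.7, 1429 and 1489.8 CPM in the blood-activating samples, at 1739, 1369, 1159.8, 1257 and 1577 CPM in the heat-clearing samples, at 1331, 1268, 1493, 1195 and 1318 CPM in the yin-nourishing samples and at 1189, 1293, 1140.3, 1293 and 1206 CPM in the spleen-strengthening samples. All groups overlapped, and the log2 fold change was 0.20 (95% interval -0.03 to 0.43) for blood-activating and 0.21 (95% interval -0.01 to 0.44) for heat-clearing over spleen-strengthening. The counts do not separate the PKM1 and PKM2 splice forms.

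ENO1, the main enolase (chr1:8861000-8879250, minus strand), stood at 375, 308, 449.5, 379 and 422 CPM in the blood-activating samples, at 443, 360.0, 338, 381 and 511 CPM in the heat-clearing samples, at 360.3, 371, 368, 276 and 343 CPM in the yin-nourishing samples and at 304, 329, 288, 334 and 306 CPM in the spleen-strengthening samples. Every heat-clearing sample lay above every spleen-strengthening sample, by a narrow margin at its lower edge, 338.3 against 334.5 CPM. ENO2, the neuronal enolase, also separated in this way, with 48.4 ± 16.1 CPM in blood-activating, 49.5 ± 5.52 CPM in heat-clearing, 45.8 ± 15.5 CPM in yin-nourishing and 37.4 ± 8.67 CPM in spleen-strengthening samples (SD, n = 5 each), and together with PFKFB3 these were the 3 members higher without overlap in that pair. The log2 fold change of ENO1 was 0.38 (SE 0.12, edgeR adjusted p = 0.323) for heat-clearing over spleen-strengthening and 0.31 (SE 0.12, edgeR adjusted p = 0.149) for blood-activating over spleen-strengthening. With the RN7SK-high libraries left out it was 0.39 and 0.27. That of ENO2 was 0.40 (SE 0.23, edgeR adjusted p = 0.515) for heat-clearing over spleen-strengthening.

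PGAM1, phosphoglycerate mutase, averaged 173 ± 20.5 CPM in blood-activating, 167 ± 27.5 CPM in heat-clearing, 155 ± 5.50 CPM in yin-nourishing and 140.4 ± 17.5 CPM in spleen-strengthening samples (SD, n = 5 each), and its log2 fold change was 0.30 (SE 0.11, edgeR adjusted p = 0.142) for blood-activating and 0.25 (SE 0.11, edgeR adjusted p = 0.412) for heat-clearing over spleen-strengthening. Leaving out the RN7SK-high libraries gave 0.14 and 0.14. PGAM1 has 13 pseudogene rows in the table, which held 2.89% as many counts as the gene. PGK1, which makes ATP in the same stretch of the pathway, averaged 349 ± 70.5 CPM in blood-activating, 361 ± 96.6 CPM in heat-clearing, 371 ± 84.9 CPM in yin-nourishing and 346 ± 41.3 CPM in spleen-strengthening samples (SD, n = 5 each), without a pair at an unadjusted p under 0.05. ENO3 reached 1.73 CPM at most and had 0 counts in 4 samples, and skeletal muscle markers summed to at most 3.15 CPM, with ACTA1 at 0 in all 20 samples.

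Lactate dehydrogenase mRNA was almost wholly that of the A subunit, which favours lactate production. LDHA (chr11:18394388-18408425, plus strand) stood at 358, 236, 402, 397 and 369 CPM in the blood-activating samples, at 331, 277, 507, 338 and 416 CPM in the heat-clearing samples, at 376, 467, 309.7, 345 and 527 CPM in the yin-nourishing samples and at 422, 454, 383, 285 and 377 CPM in the spleen-strengthening samples. Blood-activating 4 was the lowest sample, and all groups overlapped. Its lowest mean was in blood-activating samples, and no pair reached an unadjusted p under 0.05. The log2 fold change was -0.12 (95% interval -0.47 to 0.22) for blood-activating over spleen-strengthening and -0.04 (95% interval -0.38 to 0.31) for heat-clearing over spleen-strengthening.

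LDHB, the heart-type subunit that favours lactate use (chr12:21635342-21757857, minus strand), had 339 counts over all 20 samples, against 739023 for LDHA. It had 0 counts in 6 samples, a median of 0.0540 CPM, and its highest value, 1.51 CPM, in heat-clearing 2. In the 14 samples with any LDHB count, the LDHA count was 184 to 15035 times the LDHB count. Its counts are uncertain, since AC010197.2 shares 997 exon bases with it on the same strand and held 357 counts, and 3 LDHB pseudogene rows held 584. Even the sum of LDHB and AC010197.2 did not exceed 1.51 CPM in any sample. The stretch before the LDHB start printed above held no ACGTG, and nothing about its regulation was measured.

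Lactate export rests on SLC16A1 (MCT1), a carrier of broad use, and SLC16A3 (MCT4), the exporter of glycolytic cells. SLC16A3 (chr17:82228397-82261129, plus strand) stood at 39.9, 25.9, 29.5, 53.5 and 45.95 CPM in the blood-activating samples, at 71.2, 59.5, 19.04, 31.1 and 30.2 CPM in the heat-clearing samples, at 29.6, 26.01, 28.96, 16.1 and 19.4 CPM in the yin-nourishing samples and at 23.2, 24.3, 24.4, 28.7 and 17.5 CPM in the spleen-strengthening samples. Heat-clearing 1 and 2 were the highest of all samples and heat-clearing 3 was among the lowest, so the heat-clearing group spanned nearly the whole range. SLC16A3 had log2 fold changes of 0.84 (SE 0.29, edgeR adjusted p = 0.323) for heat-clearing and 0.72 (SE 0.29, edgeR adjusted p = 0.154) for blood-activating over spleen-strengthening. Over yin-nourishing it was 0.81 (SE 0.29, edgeR adjusted p = 0.456) for heat-clearing and 0.70 (SE 0.29, edgeR adjusted p = 0.195) for blood-activating. Without the RN7SK-high libraries the 4 values were 0.18, 0.22, 0.16 and 0.20. SLC16A3 shares 482 exon bases with CSNK1D on the opposite strand.

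SLC16A1 (chr1:112911847-112957013, minus strand) stood at 34.7, 30.4, 35.3, 32.5 and 36.1 CPM in the blood-activating samples, at 39.2, 31.3, 45.3, 31.8 and 41.1 CPM in the heat-clearing samples, at 36.3, 44.7, 40.3, 39.7 and 38.97 CPM in the yin-nourishing samples and at 36.4, 46.4, 39.1, 32.3 and 37.1 CPM in the spleen-strengthening samples. Every blood-activating sample lay below every yin-nourishing sample, though the highest blood-activating and the lowest yin-nourishing values were 36.1 and 36.3 CPM. The log2 fold change was -0.24 (SE 0.12, edgeR adjusted p = 0.279), and -0.29 without the RN7SK-high libraries. In this pair the mean of SLC16A3 was higher and that of SLC16A1 lower in blood-activating samples, and their ratio is given with the other paralog ratios.

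Of the kinases that switch off pyruvate dehydrogenase, PDK1, PDK3 and PDK2 stood in that order of mean CPM in all 4 treatments. PDK1, the hypoxia-induced kinase and the highest of them in CPM (chr2:172555373-172608669, plus strand), stood at 50.2, 62.5, 80.1, 72.2 and 71.5 CPM in the blood-activating samples, at 55.6, 53.5, 81.3, 48.3 and 61.7 CPM in the heat-clearing samples, at 69.3, 72.5, 40.7, 43.2 and 83.8 CPM in the yin-nourishing samples and at 62.1, 87.5, 69.4, 46.7 and 65.1 CPM in the spleen-strengthening samples. All groups overlapped, and the log2 fold change was 0.03 (95% interval -0.36 to 0.41) for blood-activating over spleen-strengthening. PDK2 (chr17:50094737-50112152, plus strand), a widely expressed kinase, stood at 26.97, 12.5, 12.7, 24.4 and 22.04 CPM in the blood-activating samples, at 22.1, 25.6, 9.73, 17.9 and 15.003 CPM in the heat-clearing samples, at 12.2, 12.2, 14.1, 13.6 and 15.4 CPM in the yin-nourishing samples and at 14.9, 8.43, 13.1, 13.6 and 10.7 CPM in the spleen-strengthening samples. In the blood-activating group the 3 RN7SK-high libraries were at 22.04 CPM or more and the other replicates at 12.5 and 12.7 CPM, within the range of the other treatments. Its log2 fold change was 0.70 (SE 0.24, edgeR adjusted p = 0.113) for blood-activating over spleen-strengthening, 0.55 (SE 0.24, edgeR adjusted p = 0.222) for blood-activating over yin-nourishing and 0.57 (SE 0.24, edgeR adjusted p = 0.369) for heat-clearing over spleen-strengthening. Without the RN7SK-high libraries these were 0.04, -0.10 and 0.22, the second with its sign reversed. PDK2 shares 2113 exon bases with SAMD14 on the opposite strand. PDK3 averaged 43.5 ± 16.5 CPM in blood-activating, 37.6 ± 5.63 CPM in heat-clearing, 41.3 ± 6.96 CPM in yin-nourishing and 43.95 ± 7.42 CPM in spleen-strengthening samples (SD, n = 5 each), with no pair at an unadjusted p under 0.05.

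PDHA1, the catalytic subunit of the first enzyme of the complex, averaged 26.97 ± 4.88 CPM in blood-activating, 26.7 ± 3.12 CPM in heat-clearing, 33.98 ± 2.11 CPM in yin-nourishing and 29.9 ± 5.45 CPM in spleen-strengthening samples (SD, n = 5 each). Its log2 fold change was -0.33 (SE 0.14, edgeR adjusted p = 0.197) for blood-activating and -0.35 (SE 0.14, edgeR adjusted p = 0.460) for heat-clearing over yin-nourishing, the only member lower at an unadjusted p under 0.05 in either pair. With the RN7SK-high libraries left out these were -0.09 and -0.26. Its partner PDHB averaged 13.5 ± 6.94 CPM in blood-activating, 14.6 ± 2.95 CPM in heat-clearing, 14.48 ± 1.65 CPM in yin-nourishing and 13.3 ± 1.87 CPM in spleen-strengthening samples (SD, n = 5 each). In blood-activating samples PDHB was 7.31 to 10.1 CPM in the RN7SK-high libraries and 20.5 and 21.5 CPM in the others, so the group mean joined separate levels. Without those libraries its log2 fold change of blood-activating over spleen-strengthening was 0.65, against 0.02 with all samples. DLAT, the acetyltransferase core, averaged 99.6 ± 13.1 CPM in blood-activating, 95.2 ± 4.15 CPM in heat-clearing, 91.3 ± 3.20 CPM in yin-nourishing and 90.7 ± 4.94 CPM in spleen-strengthening samples (SD, n = 5 each). Of the carrier subunits, MPC1 averaged 25.9 ± 3.52 CPM in blood-activating, 25.4 ± 7.17 CPM in heat-clearing, 30.3 ± 5.21 CPM in yin-nourishing and 28.7 ± 6.70 CPM in spleen-strengthening samples (SD, n = 5 each). MPC2 averaged 10.4 ± 1.69 CPM in blood-activating, 10.1 ± 1.74 CPM in heat-clearing, 10.3 ± 1.25 CPM in yin-nourishing and 8.28 ± 1.33 CPM in spleen-strengthening samples (SD, n = 5 each), and neither had a pair at an unadjusted p under 0.05.

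Several of the larger fold changes moved with the RN7SK-high libraries. In both the blood-activating and the heat-clearing group, PFKL, PFKP, SLC16A3 and PDK2 were higher in all RN7SK-high libraries than in the others of the group, 4 of 34 members, as were 12.3% of all rows. PGM1, PDHA1 and PDHB were lower in all of them in both groups, 3 of 34 members, against 10% of all rows. Fitted without these 5 libraries, blood-activating against spleen-strengthening gave 31 members higher and 3 lower, with a median log2 difference of 0.22 against 0 for all rows. In that fit 3 members were higher and 0 lower at an unadjusted p under 0.05, which 6.57% of all rows passed in both directions together. The smallest edgeR adjusted p was 0.485. Heat-clearing against spleen-strengthening gave 29 higher and 5 lower, with a median of 0.20 against -0.00 for all rows. At that threshold 3 members were higher and 0 lower (4.45% of all rows in both directions together). The share of all rows that were higher is not given for these fits. The median of the members was positive with and without the RN7SK-high libraries.

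**Figure D4:**
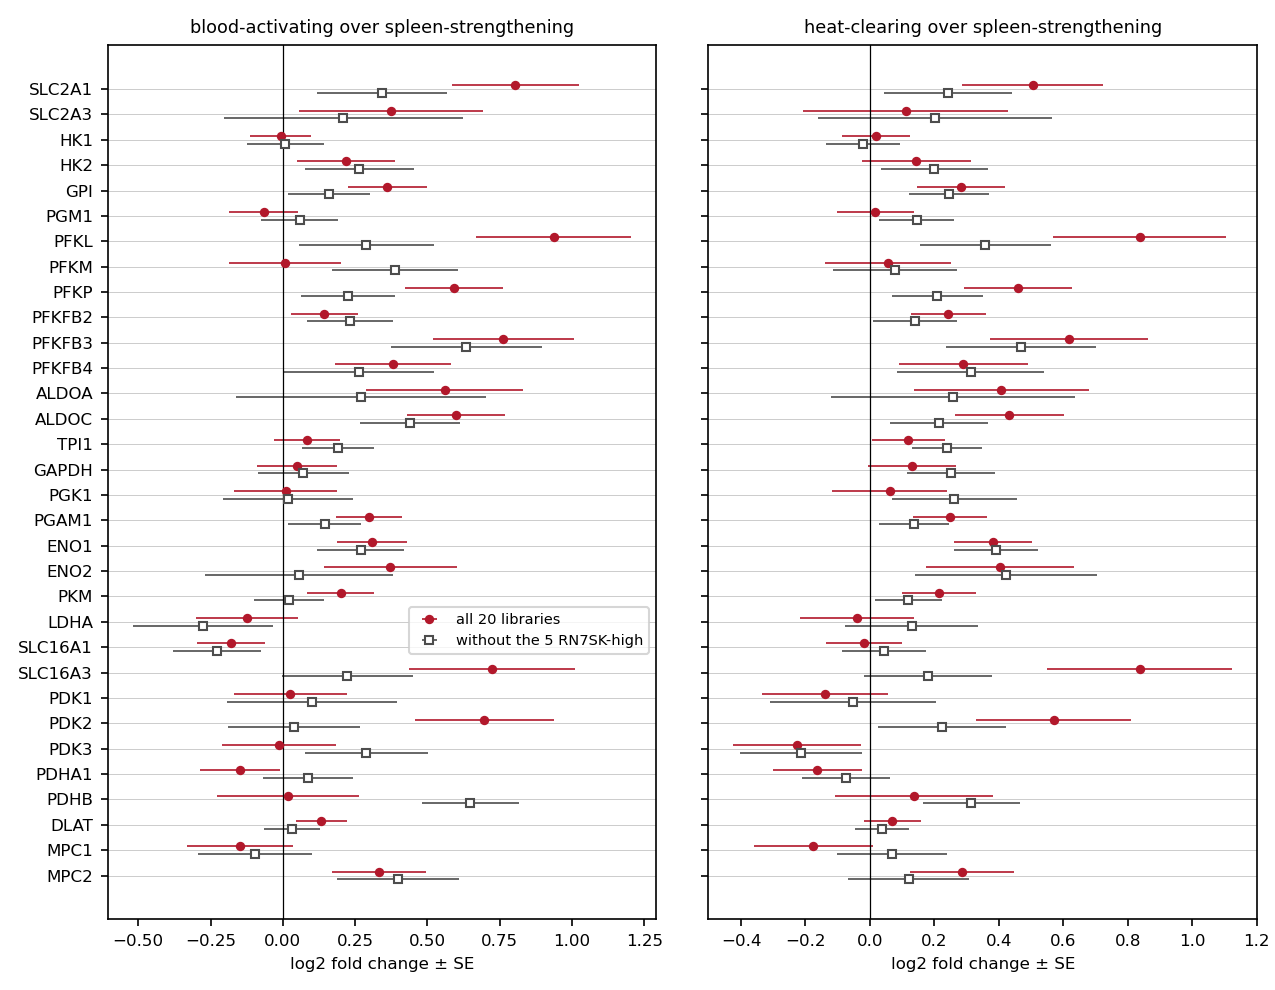
log2 fold change with its SE of 32 members for blood-activating over spleen-strengthening (left) and heat-clearing over spleen-strengthening (right), with filled circles for all 20 libraries and open squares for the fit without the 5 RN7SK-high libraries. PFKL, SLC16A3 and PDK2 lie closer to 0 as squares, PFKFB3 and ENO1 lie near their circles, and PDHB lies farther to the right as a square.

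The difference between RN7SK-high and other libraries of a group ran along GC content. Across 32 members, with ENO3 and LDHB left out, the log2 ratio of the means and the GC content of the longest transcript had a Pearson r of 0.60 and a Spearman rho of 0.61 in the blood-activating group, and 0.64 and 0.49 in the heat-clearing group. These are descriptions over genes that share the same libraries, and genes are not independent replicates. The 10 members higher in blood-activating over spleen-strengthening samples at an unadjusted p under 0.05 had a median GC content of 56.2%, against 46.6% for the other 24 members and 47.8% for all rows with a matched transcript. PFKL and SLC16A3, with 64.1 and 62.7%, had the highest GC content of all members. The part of GC content in these differences was not tested.

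**Figure D5:**
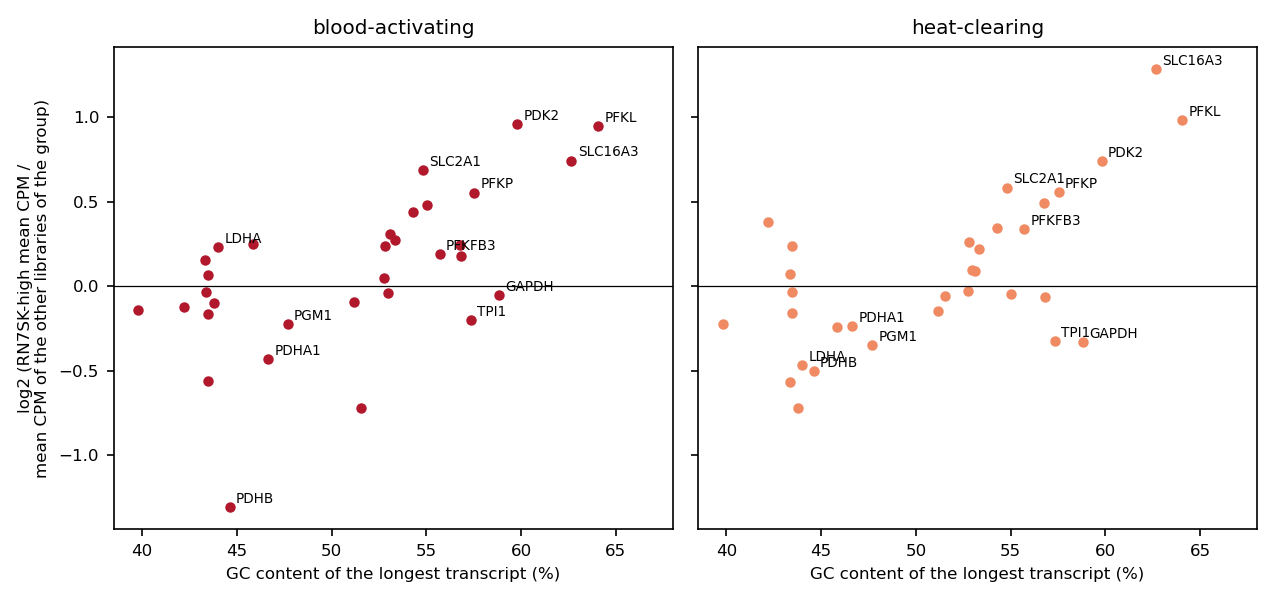
GC content of the longest transcript of 32 members against the log2 ratio of mean CPM in RN7SK-high libraries over the other libraries of the same treatment, blood-activating on the left and heat-clearing on the right. PFKL, SLC16A3 and PDK2 lie at the upper right of both panels, and PDHA1, PDHB and PGM1 lie below 0 in both.

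Other tools called members where edgeR called none. DESeq2 called 6 members in the 4-group test (ALDOC, PFKP, SLC2A1, PFKL, PFKFB3 and SLC16A3), among 4.97% of all rows. It called 3 for blood-activating against yin-nourishing (ALDOC, PFKL and PFKFB3), among 4.11% of rows, and 6 for blood-activating against spleen-strengthening (the first 5 of the 4-group test and PDK2), among 7.7% of rows. With limma voom the counts were 10, 9 and 12, among 13.5, 16.9 and 19.7% of rows. Both tools called 0 members in the other pairs. DESeq2 called 0.0323% of rows in blood-activating against heat-clearing, 0.105% in heat-clearing against yin-nourishing, 0.117% in heat-clearing against spleen-strengthening and 0.129% in yin-nourishing against spleen-strengthening, and limma voom 0, 0, 0.0121 and 0.00403%. PFKFB3, for example, had an adjusted p of 0.00888 in the 4-group test with DESeq2 and of 0.0128 with limma voom, against 0.172 with edgeR.

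Leaving out single libraries changed the edgeR calls as well. Without blood-activating 4, which was the lowest of its group for 15 of 32 members, edgeR called 8 members for blood-activating against spleen-strengthening, among 7.81% of rows (ALDOC, PDK2, PFKP, SLC2A1, PFKL, ENO1, PFKFB3 and GPI). It then called 2 for blood-activating against yin-nourishing, PFKL and PFKFB3, among 1.41% of rows. Without heat-clearing 3, the lowest of its group for 16 of 32 members, the 4-group test called ALDOC and PFKL, among 1.47% of rows. Neither left-out sample was RN7SK-high, so each omission left a larger share of RN7SK-high libraries in its group. For blood-activating against spleen-strengthening, the fit without the RN7SK-high libraries had a smallest edgeR adjusted p of 0.485, with 2 blood-activating samples left. Fewer samples can by themselves raise an adjusted p, so these fits are not on a like basis. The part of RN7SK level in these calls was not tested. Spleen-strengthening 7 and yin-nourishing 7 were the lowest of their groups for 16 and 13 of the 32 members.

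Ratios between paralogs within a sample do not depend on its scaling. Of 78 exact two-sided permutation tests (13 ratios in 6 pairs, 5 samples against 5), 7 had an unadjusted p under 0.05 and 0 passed adjustment over the 78. The smallest p was 0.00794, the smallest that 5 against 5 samples allow, with an adjusted p of 0.206. SLC16A3 over SLC16A1 was 0.836 to 1.64 in blood-activating samples against 0.406 to 0.816 in yin-nourishing samples, without overlap, a log2 difference of 0.93 (exact permutation p = 0.00794, adjusted p = 0.206). Against 0.471 to 0.887 in spleen-strengthening samples the log2 difference was 0.86 (exact permutation p = 0.0238, adjusted p = 0.310). Without the RN7SK-high libraries these differences were 0.53 and 0.46, and the blood-activating group then held 2 samples. Per kilobase, SLC16A3 made up a mean of 39.8% of the pair in blood-activating, 38.3% in heat-clearing, 25.99% in yin-nourishing and 26.8% in spleen-strengthening samples.

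Ratios of phosphofructokinase subunits also had an unadjusted p under 0.05, with smaller differences once the RN7SK-high libraries were left out. PFKP over PFKL was 2.48 to 3.497 in blood-activating samples and 3.54 to 3.94 in yin-nourishing samples, a log2 difference of -0.36 (exact permutation p = 0.00794, adjusted p = 0.206). In heat-clearing against yin-nourishing samples it was also -0.36 (exact permutation p = 0.0397, adjusted p = 0.442), and that of PFKM over PFKL was -0.68 (exact permutation p = 0.0238, adjusted p = 0.310). These 3 values were -0.13, -0.18 and -0.25 without the RN7SK-high libraries. PFKFB3 over PFKFB2 was 0.760 to 1.09 in heat-clearing samples against 0.246 to 0.716 in yin-nourishing samples, a log2 difference of 0.76 (exact permutation p = 0.00794, adjusted p = 0.206). PDHA1 over PDHB had a log2 difference of -0.35 between heat-clearing and yin-nourishing samples (exact permutation p = 0.0238, adjusted p = 0.310). With the RN7SK-high libraries left out, the differences were 0.73 for PFKFB3 over PFKFB2 and -0.46 for PDHA1 over PDHB. LDHA over LDHB could not be tested, because LDHB had no count in 6 samples.

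Neighbouring pathways gave the same count of 0 past the adjusted threshold in the 4-group edgeR test. In that test 15.4% of all rows had an unadjusted p under 0.05, and the group means that follow include the RN7SK-high libraries. Of the gluconeogenic genes, 5 of 7 listed were tested and 2 had an unadjusted p under 0.05. PC, which carboxylates pyruvate to oxaloacetate, averaged 16.4 ± 5.05 CPM in blood-activating, 12.3 ± 4.78 CPM in heat-clearing, 8.42 ± 1.38 CPM in yin-nourishing and 8.19 ± 0.759 CPM in spleen-strengthening samples (SD, n = 5 each; edgeR adjusted p = 0.172). The mitochondrial PEP carboxykinase PCK2 was the other. In the pentose phosphate pathway 3 of 7 had an unadjusted p under 0.05 (TKT, PGLS and RPE). TKT, the transketolase, averaged 79.1 ± 17.6 CPM in blood-activating, 70.8 ± 23.9 CPM in heat-clearing, 53.2 ± 11.4 CPM in yin-nourishing and 44.9 ± 7.02 CPM in spleen-strengthening samples (SD, n = 5 each; edgeR adjusted p = 0.172). RPE had its means in the opposite order, with 68.8 ± 29.3, 83.7 ± 31.7, 108 ± 5.34 and 115 ± 12.6 CPM in the same order of groups.

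In the citrate cycle 3 of 16 genes (MDH2, IDH3B and SDHD) had an unadjusted p under 0.05, and of the other members of the glycolytic families and their regulators 3 of 19 tested (of 28 listed) did (BPGM, BSG and PGM2L1), shares near the 15.4% of all rows. BSG, the chaperone that brings the SLC16A carriers to the membrane, averaged 70.3 ± 19.4 CPM in blood-activating, 70.8 ± 37.2 CPM in heat-clearing, 46.4 ± 11.96 CPM in yin-nourishing and 39.1 ± 9.53 CPM in spleen-strengthening samples (SD, n = 5 each; edgeR adjusted p = 0.223). Of 8 regulators of the hypoxia response, HIF1A and EPAS1 among them, 0 had an unadjusted p under 0.05 in the 4-group edgeR test, and 1 did, with a higher mean, in the pair of heat-clearing against spleen-strengthening. HIF1A averaged 407 ± 55.5 CPM in blood-activating, 404 ± 88.5 CPM in heat-clearing, 437 ± 45.4 CPM in yin-nourishing and 464 ± 55.4 CPM in spleen-strengthening samples (SD, n = 5 each), an mRNA level that says nothing of the protein, which is controlled by its breakdown.

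Markers of other cells were measured beside these results. The epithelial markers, of which 4 of 8 had an unadjusted p under 0.05 in the 4-group test (15.4% of all rows did), summed to 1984 to 2870 CPM in blood-activating, 1962 to 3196 CPM in heat-clearing, 2046 to 2654 CPM in yin-nourishing and 2038 to 2417 CPM in spleen-strengthening samples. Their median log2 difference over spleen-strengthening samples was 0.40 in blood-activating (6 of 8 higher), 0.34 in heat-clearing (8 of 8) and 0.01 in yin-nourishing samples (4 of 8). The medians of the 34 members in these pairs were 0.26, 0.23 and 0.10. Markers of pancreatic acinar cells (12 of 12 tested) summed to 6.11 to 849 CPM in blood-activating, 2.32 to 338 CPM in heat-clearing, 1.68 to 976 CPM in yin-nourishing and 0.968 to 66.2 CPM in spleen-strengthening samples. They were highest in blood-activating 6, heat-clearing 3 and yin-nourishing 10, and 0 of the 12 had an unadjusted p under 0.05 in that test. Against spleen-strengthening samples all 12 were higher in each other treatment. The median log2 differences were 3.74 for blood-activating, 2.14 for heat-clearing and 3.85 for yin-nourishing samples. At an unadjusted edgeR p under 0.05, 3, 0 and 4 of them were higher, against 12.2, 8.44 and 2.05% of all rows. Stromal, endothelial and immune markers (12 of 12 tested, 1 with an unadjusted p under 0.05) summed to 80.8 to 139 CPM over all samples, mostly from CD68 and COL1A1, with PTPRC at 0 in 10 samples. Islet and neural markers reached at most 2.58 CPM in sum and red cell markers at most 1.501 CPM. The part of any of these in the glycolytic values was not tested.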

How the data were processed

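RNA of 20 SW1990 samples had been depleted of rRNA and made into libraries with a directional kit, per the labels' protocols. The authors deposited whole-number read counts per gene, with HISAT2, StringTie and the build hg38 named in the submitters' processing notes. Not given in the sources used here are tool versions, the strand setting of the counts and any separation of mouse from human reads. The row names follow GENCODE release 29, which gave positions and exon lengths.

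The counts were filtered with filterByExpr at a minimum count of 10, leaving 24790 rows, scaled by TMM, and tested with edgeR 4.0.16 (robust quasi-likelihood F-test, all 20 samples in 1 fit) in R 4.3.3, with Benjamini-Hochberg adjustment over all tested rows and a threshold of 0.05. Levels are CPM from TMM library sizes. Intervals are the log2 fold change ± 1.96 SE. DESeq2 1.42.0, limma 3.58.1 (voom with quality weights), other filters, left-out samples and a term for RN7SK-high libraries (RN7SK above 5% of counts) were alternatives. ALDOA summed with AC093512.2, with and without the RN7SK-high libraries, was added after seeing the data. Paralog ratios were tested with exact permutation in scipy 1.17.1. The fit was tested on simulated data with known changes in the blood-activating group, compared with the spleen-strengthening group. It called 12% of genes raised 1.5-fold, 44% of those raised 2-fold and 78% of those raised 4-fold. Of genes lowered to 0.5 of their level it called 38%, and 2.27% of its calls were false. A member not called may therefore still differ.

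The members, gene lists and tests were chosen with earlier results of these data known. Values in every sample are given for the 8 members with the smallest p in the 4-group test, the most abundant member by CPM of each family, GAPDH and PKM. Fold changes with p are given for members with an unadjusted p under 0.05 in a pair; those of SLC16A1, ENO2 and ALDOA were added after their values were seen.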

Additional observations from a re-analysis of the deposited data

Results flagged for a closer look

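In each treatment, the highest and the lowest of the 5 samples were compared with the others for all 34 members, and a sample was noted where its gap to the nearest other sample exceeded the 95% critical value of Dixon's test. Of 136 groups of 5, 13 held such a sample. The test's rate of about 1 in 20 groups assumes normal values, and the groups here are of CPM from genes that share the same samples. No excess over chance is therefore read from this count.

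Low samples were SLC2A3 in spleen-strengthening 7, at 41.1 CPM where the other samples of the treatment had 92.1 to 101 CPM, and HK2 in heat-clearing 1, at 114 CPM where the others had 146 to 157 CPM. PFKM was low in spleen-strengthening 2, at 9.34 CPM against 16.6 to 19.4 CPM. LDHA was low in blood-activating 4, at 236 CPM against 358 to 402 CPM. ALDOA was low in yin-nourishing 7, at 179.5 CPM against 704 to 879 CPM, the sample in which AC093512.2 held most counts of the pair.

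High samples were PFKFB2 in yin-nourishing 5, at 31.1 CPM against 26.4 to 27.2 CPM, and TPI1 in blood-activating 6, at 782 CPM against 584 to 614 CPM. TPI1 was also high in spleen-strengthening 5, at 681 CPM against 570.5 to 580.1 CPM. GAPDH was high in heat-clearing 9, at 8184 CPM against 4803 to 5681 CPM, and DLAT in heat-clearing 1, at 103 CPM against 92.3 to 93.9 CPM.

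The remaining samples concern genes near 0. ENO3 was at 0.823 CPM in spleen-strengthening 8, against 0 to 0.101 CPM. LDHB was at 1.51 CPM in heat-clearing 2, against 0 to 0.112 CPM, and at 0.630 CPM in yin-nourishing 10, against 0 to 0.113 CPM. Heat-clearing 1 was flagged for both HK2 and DLAT, and every other flagged sample for 1 member.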

How the results depend on the processing

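The count of members past an adjusted p of 0.05 was 0 in all 7 comparisons with edgeR. It differed with another tool in 3 of them. In the 4-group test it was 6 with DESeq2 and 10 with limma voom, in blood-activating against yin-nourishing 3 and 9, and in blood-activating against spleen-strengthening 6 and 12. Leaving out each sample in turn gave 0 to 2, 0 to 2 and 0 to 8 members in these comparisons, and 0 to 0 in the other 4 and in the paralog ratios. The median log2 difference of the members then ranged from 0.01 to 0.07 for blood-activating against heat-clearing, 0.08 to 0.17 for blood-activating against yin-nourishing, 0.20 to 0.28 for blood-activating against spleen-strengthening, 0.05 to 0.13 for heat-clearing against yin-nourishing, 0.20 to 0.26 for heat-clearing against spleen-strengthening and 0.06 to 0.15 for yin-nourishing against spleen-strengthening. Of 420 values of single members under the other settings, 390 kept their direction and side of the threshold, 28 newly passed it in the same direction, and 2 changed sign: PDK2 in blood-activating over yin-nourishing, at -0.10 without the RN7SK-high libraries and -0.035 with a term for them. The cause was not tested. Since no member passed the threshold in the main fit, a value that shrank without changing sign counted as kept. This held for PDK2 and PFKL in blood-activating over spleen-strengthening without the RN7SK-high libraries, so the tally does not measure how far values shrank. With a replicate block 0 members passed in every comparison. The labels do not say whether the replicate numbers pair the samples. Deviations from the group mean had correlations of -0.05 to 0.17 in the 12 same-numbered pairs, of which 1 exceeded 0.1. In the 138 pairs with other numbers they were -0.20 to 0.17, and 8 exceeded 0.1. Such correlations cannot exclude a pairing. No paired analysis was possible for the paralog ratios because the treatments share at most 2 replicate numbers. Depth limits LDHB and ENO3, which had samples with 0 counts.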
